A study of Mus musculus with 8 samples.

Results

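Collagens are the main structural proteins of the extracellular matrix, and each collagen molecule is a trimer of chains that different Col genes encode. The Col chain genes and the genes that modify, fold, cleave and cross-link the chains were examined in brown adipose tissue (BAT) of cachectic mice. Members were taken from the gene names of the count table, which gave 44 chain genes and 12 processing genes, that is 56 of the 56953 genes listed. RNA was sequenced from the BAT of wild-type C57BL/6J mice, of either sex and 8 to 10 weeks old at injection, as 8 libraries. The 4 control libraries (CTR) are from mice given PBS, and the 4 cachectic libraries (CAC) are from mice given 3000000 LLC cells, a mouse lung carcinoma line, under the skin of the right flank and followed for 21 days. By the methods, LLC-injected mice without a tumor were not used. The sex of each mouse is not labelled, and the numbered libraries are not tied to named animals, so p-values measure the spread between these libraries. The comparison asks how the tumor-bearing state is associated with transcripts of collagen and its processing in BAT.

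Fibrillar chains (such as types I, III and V) assemble into the rope-like fibers of interstitial matrix. Basement membrane chains (type IV) form the sheet that wraps each adipocyte and capillary, and type VI chains form beaded filaments between the sheet and the fibers, which are abundant in adipose tissue. New chains are hydroxylated on proline by prolyl 4-hydroxylase and on lysine by the Plod enzymes in the endoplasmic reticulum, where the chaperone that Serpinh1 encodes holds the folded trimer. Outside the cell, Bmp1 removes the C-terminal propeptide with the help of Pcolce, and lysyl oxidases start the cross-links. Transcript counts report on the supply of chains and enzymes and not on collagen already deposited.

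Total counts ranged from 1823167 to 4827956 per library. A count of 0 allows up to 3 counts, or 0.62 to 1.65 CPM (counts per 1000000 counts of the library, elsewhere scaled by TMM) depending on the library. The members held between 0.0774% and 0.125% of the counts of a library. Brown adipocyte markers summed to 14795 to 17057 CPM across all libraries, with Ucp1 at 3965 ± 186 CPM (SD, n = 4) in CTR and 4059 ± 601 CPM in the CAC mice. Of the 9 tested markers of that list, 7 were higher and 2 lower, and Plin1 was the only one with an unadjusted p below 0.05 (log2 fold change -0.27, adjusted p by edgeR = 0.192), with all CAC libraries below all CTR libraries. Of the 56 members, 25 passed the filter on low counts and were tested with edgeR's quasi-likelihood test together with all other genes, 9876 in all, and Benjamini-Hochberg adjustment ran over all of them.

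No member had an edgeR adjusted p below 0.05, whereas 92 of the 9876 genes did (0.932%). The lowest adjusted p among the members was 0.0632 for Col6a2, and DESeq2 also called 0 of the 25. Without the filter on low counts edgeR called 4 of 51 members, beside 351 of 23730 genes. The 4 were all lower in CAC (Col15a1, Col1a2, Col5a1 and Col6a2). With the replicate number as a block edgeR called 1 of 25 members (Col6a2), beside 140 of 9876 genes. With an unadjusted p below 0.05, 7 of the 25 were lower in CAC (Col6a2, Col5a3, Col5a1, Col15a1, Col6a3, Serpinh1 and Col1a2) and 2 were higher (Pcolce and P4ha1). Among all genes tested, 5.93% were lower and 7.01% were higher by the same criterion. The 7 became 4 without CAC replicate 1 and 4 without CAC replicate 4. The 16 chain genes tested had a median log2 fold change of -0.44, with 14 below zero, beside a median of 0.00 and 50.0% below zero over all genes tested. The 9 processing genes tested had a median of 0.10, with 3 below zero. Changes of single members below are therefore differences between group means that the adjusted test did not call.

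**Figure D1:**
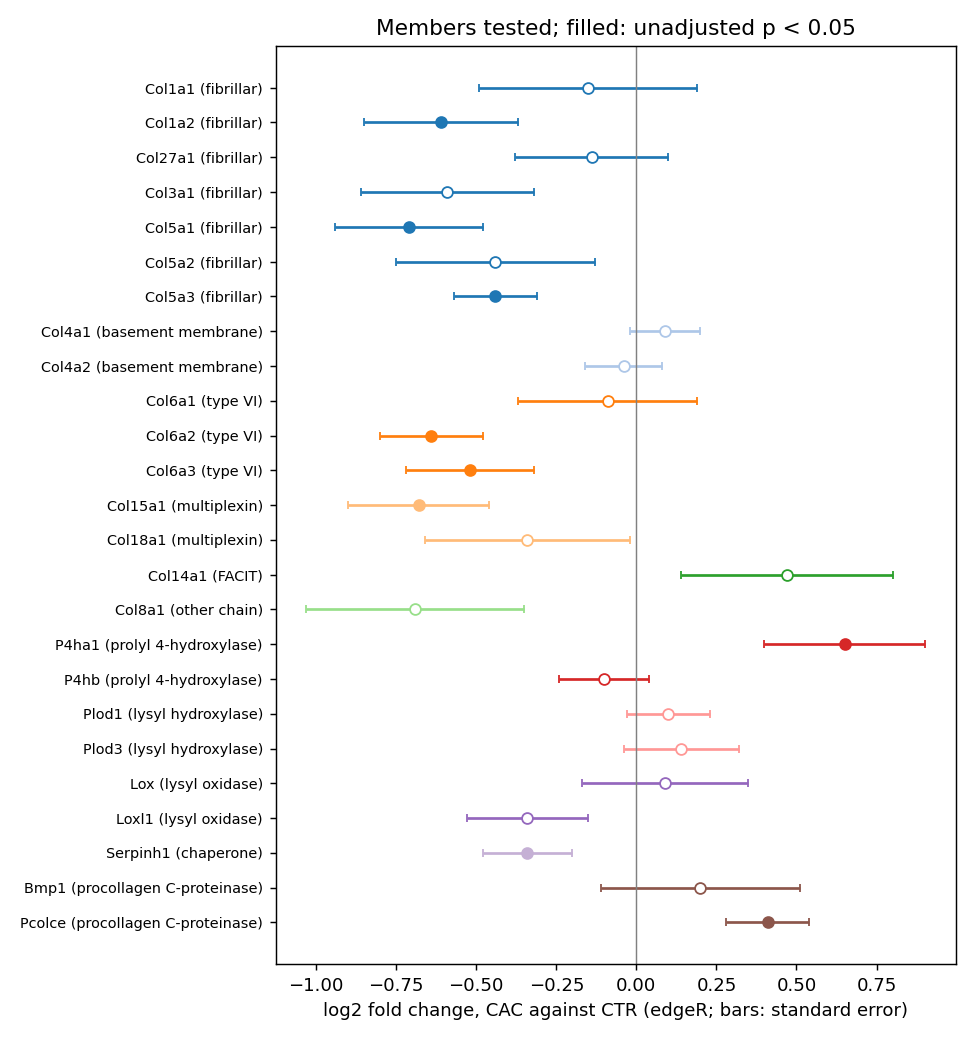
Log2 fold change of CAC against CTR for the 25 members tested (edgeR, bars are standard errors), grouped by class; filled points have an unadjusted p below 0.05. All 7 fibrillar and all 3 type VI chains tested lie left of zero, while Col4a1 and Col4a2 lie at 0.09 and -0.04.

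The fibrillar, type VI and basement membrane classes are set side by side, and no difference between classes was tested. Summed over all 11 fibrillar genes, CPM was 460, 537, 337 and 416 in CTR replicates 1 to 4 and 247, 439, 402 and 265 in CAC replicates 1 to 4. CAC replicates 1 and 4 lay below every CTR mouse, and CAC replicates 2 and 3 lay within the CTR range. The mean was 438 ± 83.7 CPM in the CTR mice and 338 ± 96.7 CPM in the CAC mice (SD, n = 4), a ratio of 0.773, and the groups overlapped. The 6 type VI genes summed to 66.6, 67.6, 74.3 and 65.0 CPM in the CTR mice and to 32.4, 53.2, 61.8 and 40.1 CPM in the CAC mice, so all 4 CAC libraries lay below all 4 CTR libraries, with a ratio of means of 0.686. The 6 basement membrane genes summed to 298 ± 20.2 CPM in the CTR mice and 307 ± 36.3 CPM in the CAC mice (SD, n = 4), a ratio of 1.03, with overlapping groups. No p is given for these sums, because the members were chosen with results in view.

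**Figure D2:**
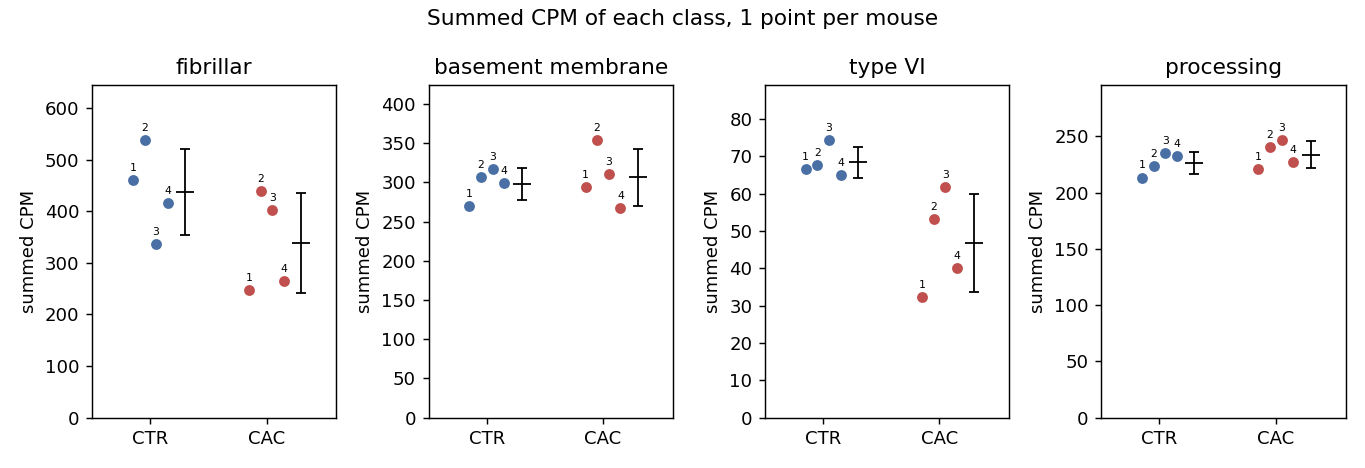
Summed CPM per library over the fibrillar, basement membrane, type VI and processing genes, with the replicate number above each point and the mean ± SD of 4 mice beside it; axes start at 0. The type VI sums of the CAC mice (32.4 to 61.8 CPM) lie below those of the CTR mice (65.0 to 74.3 CPM). The other classes shown overlap.

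As a share of all chain counts in a library, basement membrane chains held 31.6% to 41.1% in CTR and 37.8% to 48.2% in CAC. Fibrillar chains held 43.6% to 55.4% in CTR and 40.5% to 49.0% in CAC, and type VI chains held 6.97% to 9.62% and 5.32% to 7.51%. The ranges of all 3 classes overlapped between the groups.

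Type I collagen is a trimer of Col1a1 and Col1a2 chains and the most abundant protein of fibrous tissue. Col1a2 (chromosome 6 of GRCm38, 4504814 to 4541544) was at 88.2, 88.4, 53.9 and 61.7 CPM in the CTR mice and at 31.3, 51.6, 65.9 and 40.4 CPM in the CAC mice. Only CAC replicate 3 lay above the lowest CTR mice. The log2 fold change was -0.61 (standard error, SE, 0.24, adjusted p by edgeR = 0.318, and 0.000609 without the filter on low counts). Col1a1 (chromosome 11, 94936224 to 94953042) was at 162, 195, 98.4 and 149 CPM in the CTR mice and at 94.1, 219, 140 and 97.3 CPM in the CAC mice. Here CAC replicate 2 was the highest of all 8 libraries, and the groups overlapped widely (log2 fold change -0.15, SE 0.34, adjusted p by edgeR = 0.913, and -0.45 without CAC replicate 2). In 5 of the 8 libraries Col1a1 holds fractions of reads, which other places in the genome share, whereas Col1a2 holds none.

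Within each library, the count of Col1a1 relative to its partner Col1a2 was 1.84, 2.21, 1.82 and 2.41 in CTR and 2.97, 4.23, 2.12 and 2.40 in CAC. CAC replicates 1 and 2 exceeded every CTR mouse, and CAC replicates 3 and 4 did not. On the log2 scale this came to 1.04 ± 0.20 for the CTR mice and 1.5 ± 0.44 for the CAC mice (SD, n = 4), a difference of 0.46 that was 0.27 without CAC replicate 2.

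Type III collagen, encoded by Col3a1, forms thin fibers together with type I in soft tissue. Col3a1 was at 127, 154, 95.0 and 98.6 CPM in the CTR mice and at 53.5, 77.6, 119 and 62.4 CPM in the CAC mice. 3 of the CAC libraries were below all CTR libraries and CAC replicate 3 was within the CTR range. The log2 fold change was -0.59 (SE 0.27, adjusted p by edgeR = 0.423), and without CAC replicate 3 it was -0.88 (adjusted p by edgeR = 0.0356). The log2 ratio of Col3a1 to Col1a1 in a library came to -0.33 ± 0.22 for the CTR mice and -0.79 ± 0.53 for the CAC mice (SD, n = 4), with overlap, and the difference of -0.46 was -0.22 without CAC replicate 2. Col3a1 lies on the plus strand of chromosome 1, from 45311538 to 45349706, and Col5a2 lies 24614 bases away on the minus strand.

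Type V collagen sits inside type I fibers and limits their width. Col5a3 had the least spread of the fibrillar chains, at 35.6, 36.0, 35.3 and 33.3 CPM in the CTR mice and 23.8, 26.1, 27.0 and 25.8 CPM in the CAC mice. All 4 CAC mice lay below all 4 CTR mice, and the log2 fold change was -0.44 (SE 0.13, edgeR unadjusted p = 0.00249, adjusted p = 0.11). Of all genes tested, 3.4% had all CAC libraries below all CTR libraries, as did 3 of the 25 members tested (Col5a3, Col6a2 and Col15a1). Col5a1 was at 14.4, 25.6, 17.4 and 18.3 CPM in the CTR mice and at 9.73, 16.5, 13.2 and 7.67 CPM in the CAC mice. Only CAC replicate 2 exceeded the lowest CTR mouse (log2 fold change -0.71, adjusted p by edgeR = 0.151, and 0.0204 without the filter). Col5a2, at 7.92, 8.26, 3.73 and 8.16 CPM in the CTR mice and 8.11, 2.66, 4.40 and 6.27 CPM in the CAC mice, was low and overlapped (log2 fold change -0.44, adjusted p by edgeR = 0.587). With single libraries left out its log2 fold change ran from -0.64 (without CAC replicate 1) to -0.27 (without CAC replicate 2). The remaining fibrillar chain tested, Col27a1, was at 32.9 ± 9.95 CPM in the CTR mice and 30.5 ± 9.89 CPM in the CAC mice (SD, n = 4), and its log2 fold change of -0.14 became 0.11 without CTR replicate 4.

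**Figure D3:**
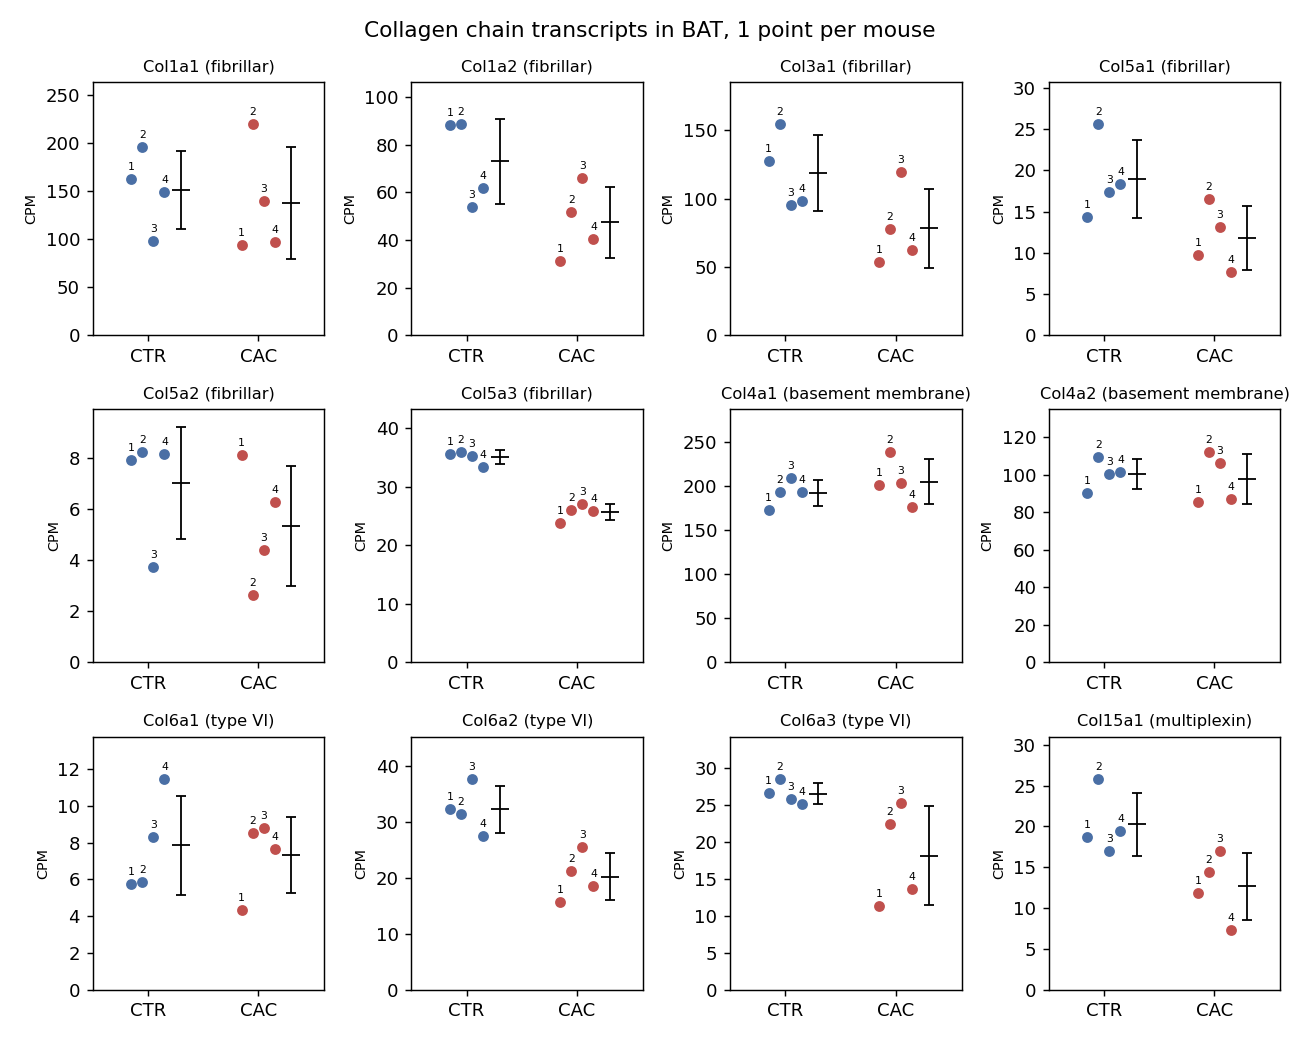
CPM of 12 collagen chain genes in each of the 8 libraries, with the replicate number above each point and the mean ± SD (n = 4) beside each group; every axis starts at 0. Col5a3 (23.8 to 27.0 CPM in the CAC mice against 33.3 to 36.0 CPM in CTR) and Col6a2 separate the groups, Col15a1 separates them by the smallest margin, and Col4a1 and Col4a2 overlap.

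Type IV collagen in most basement membranes is built from Col4a1 and Col4a2. Col4a1 was at 173, 193, 209 and 193 CPM in the CTR mice and 202, 239, 204 and 177 CPM in the CAC mice, and only CAC replicate 2 lay outside the CTR range. The log2 fold change was 0.09 (SE 0.11, adjusted p by edgeR = 0.768, and 0.01 to 0.17 with single libraries left out). Col4a2 was at 89.97, 109, 100.4 and 101.2 CPM in the CTR mice and 85.4, 112, 106 and 87.1 CPM in the CAC mice. Its log2 fold change of -0.04 (SE 0.12, adjusted p by edgeR = 0.938) changed sign when CTR replicate 2, CAC replicate 1 or CAC replicate 4 was left out. Col4a2 holds fractions of reads in 3 libraries. The log2 ratio of Col4a1 to Col4a2 came to 0.94 ± 0.10 for the CTR mice and 1.07 ± 0.13 for the CAC mice (SD, n = 4), the least variable of the partner ratios. The alternative type IV chains were below the filter. Col4a3 was at 1.94 ± 0.50 CPM in the CTR mice and 1.02 ± 1.5 CPM in the CAC mice and Col4a4 at 3.22 ± 1.4 and 2.29 ± 1.38 CPM (SD, n = 4), with exact two-sided permutation p of 0.286 and 0.4. Col4a5 and Col4a6 had at most 3 counts in any library.

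Col4a1 and Col4a2 lie head to head on chromosome 8, Col4a1 on the minus strand from 11198423 to 11312826 and Col4a2 on the plus strand from 11312805 to 11449287. Their annotated first exons overlap by 22 bases, so reads from that stretch could belong to either gene where strand was not used in counting. The overlap (RefSeq, GRCm38.p6, chr8:11312805-11312826, plus strand) is shown because both genes start at its ends, and the capitals mark the GC box letters GGGCGG.

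Col4a1-Col4a2 start: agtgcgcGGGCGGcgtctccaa

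Type VI collagen is a trimer of Col6a1, Col6a2 and Col6a3. Col6a2 had the smallest p of all members and was at 32.4, 31.4, 37.8 and 27.6 CPM in the CTR mice and 15.7, 21.3, 25.5 and 18.5 CPM in the CAC mice. All 4 CAC mice lay below all 4 CTR mice (log2 fold change -0.64, SE 0.16, edgeR unadjusted p = 0.000774, adjusted p = 0.0632). The adjusted p by edgeR was 0.0492 without CTR replicate 4, 0.0425 without CAC replicate 3 and 0.00553 without the filter on low counts. It was 0.0333 with the replicate number as a block, although the labels name no pairing by number. The call therefore depended on single libraries, on the filter and on the block, among the settings tried. Col6a3 was at 26.6, 28.5, 25.7 and 25.1 CPM in the CTR mice and 11.3, 22.3, 25.2 and 13.6 CPM in the CAC mice. CAC replicate 3 reached the lowest CTR level and the other CAC mice lay below it, and the spread in CAC (SD 6.69) was wider than in CTR (SD 1.47, n = 4). Its log2 fold change was -0.52 (SE 0.20, adjusted p by edgeR = 0.246).

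Col6a1 was low, at 5.76, 5.86, 8.30 and 11.5 CPM in the CTR mice and 4.32, 8.51, 8.79 and 7.67 CPM in the CAC mice, and overlapped between the groups. Its log2 fold change was -0.09 (SE 0.28, adjusted p by edgeR = 0.933) and turned to 0.21 without CTR replicate 4 and 0.06 without CAC replicate 1. Col6a1 and Col6a2 are neighbors on the minus strand of chromosome 10, from 76708792 to 76726168 and from 76595762 to 76623630, with 85161 bases between them. The log2 ratio of Col6a1 to Col6a2 was -2.46, -2.40, -2.16 and -1.26 in CTR and -1.80, -1.30, -1.52 and -1.25 in CAC. 3 CTR mice lay below every CAC mouse and CTR replicate 4 lay with the CAC mice. The ratios rest on only 16 to 52 counts of Col6a1 per CTR library and 8 to 30 per CAC library. Col6a6 was below the filter, at 1.67 ± 0.68 and 0.93 ± 0.63 CPM (SD, n = 4, exact two-sided permutation p = 0.171), and Col6a4 and Col6a5 had at most 1 count in a library.

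**Figure D4:**
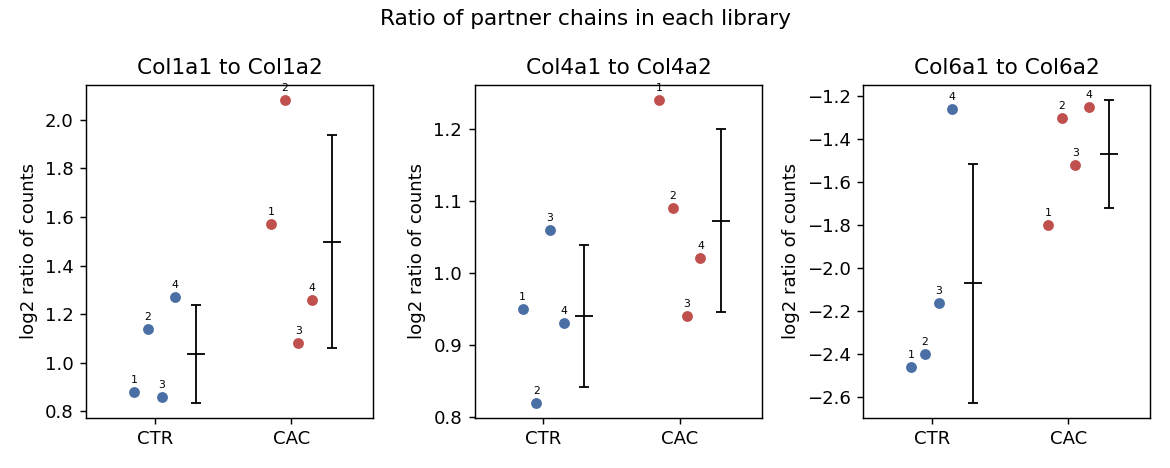
Log2 ratio of the counts of partner chains within each library, with 0.5 added to each count, replicate numbers above the points and the mean ± SD (n = 4) beside each group. The ratios of all 3 pairs overlap between the groups, and the ratio of Col1a1 to Col1a2 reaches 2.08 in CAC replicate 2 against at most 1.27 in CTR.

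The bases just before the start of 3 chains with lower group means in CAC are shown, chosen after the values were seen as 1 chain each of types III, V and VI (RefSeq, GRCm38.p6, each read 5′ to 3′ on the strand of its gene, exons left out). They are chr1:45311288-45311537 on the plus strand for Col3a1, chr9:20815068-20815317 on the minus strand for Col5a3 and chr1:90843972-90844221 on the minus strand for Col6a3. Capitals mark, on either strand, the CCAAT-box letters CCAAT, the TATA-box letters TATAAA and the GC-box letters GGGCGG, which read as CCGCCC on the opposite strand.

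Col3a1: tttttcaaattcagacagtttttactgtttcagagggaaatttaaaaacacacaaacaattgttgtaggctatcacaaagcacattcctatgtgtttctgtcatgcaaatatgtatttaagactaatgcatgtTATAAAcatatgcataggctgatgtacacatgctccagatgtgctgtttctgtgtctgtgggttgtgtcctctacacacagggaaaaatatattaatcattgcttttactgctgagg
Col5a3: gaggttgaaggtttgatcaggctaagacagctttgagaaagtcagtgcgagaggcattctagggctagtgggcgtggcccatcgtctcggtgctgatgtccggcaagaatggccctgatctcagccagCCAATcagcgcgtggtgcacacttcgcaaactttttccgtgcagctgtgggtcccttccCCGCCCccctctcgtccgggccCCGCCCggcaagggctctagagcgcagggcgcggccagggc
Col6a3: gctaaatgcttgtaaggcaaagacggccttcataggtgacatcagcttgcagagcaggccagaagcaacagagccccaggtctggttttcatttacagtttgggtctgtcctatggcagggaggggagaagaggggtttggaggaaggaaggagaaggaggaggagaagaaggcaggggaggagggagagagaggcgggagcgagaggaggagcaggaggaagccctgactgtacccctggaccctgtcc

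Col3a1 holds 1 TATAAA, Col5a3 holds 1 CCAAT and 2 GGGCGG, and Col6a3 holds none of them. The RefSeq windows of the 7 members with a lower mean and an unadjusted p below 0.05 were read for GGGCGG. It stood 3 times for Col5a3, 2 times for Col5a1, 2 times for Col1a2 and 1 time for Serpinh1. The 2 windows of Col6a2, which overlap, held it 3 and 1 times, and those of Col6a3 and Col15a1 did not hold it. The members higher at that level held it too, 1 time for Pcolce and 2 times for P4ha1. RefSeq windows of 250 bases before to 50 after a start matched 42 of the 56 members, with 45 windows, of which 15 held CCAAT, 7 held TATAAA and 29 held GGGCGG. Over all 32851 windows of the same length the shares were 37.4%, 13.6% and 35.7%. A match is a run of letters and not a shown binding site.

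Among the other chains, Col15a1, a multiplexin that anchors basement membranes to the matrix around them, was at 18.7, 25.8, 17.0 and 19.4 CPM in the CTR mice and 11.9, 14.4, 17.0 and 7.32 CPM in the CAC mice. The groups just failed to overlap, since CTR replicate 3 and CAC replicate 3 were nearly equal (log2 fold change -0.68, adjusted p by edgeR = 0.151, and 0.0233 without the filter). Col18a1, the other multiplexin, had a log2 fold change of -0.34, Col8a1 of -0.69 and Col14a1, a chain that decorates fibers, of 0.47, all with overlapping groups and edgeR adjusted p from 0.403 to 0.713. With single libraries left out these values ran from -0.57 (without CAC replicate 3) to -0.11 (without CAC replicate 4) for Col18a1, from -0.90 to -0.32 (without CTR replicate 2) for Col8a1 and from 0.12 (without CAC replicate 3) to 0.73 (without CTR replicate 1) for Col14a1. The 2 multiplexins summed to 22.3 to 30.6 CPM in the CTR mice and 9.41 to 22.0 CPM in the CAC mice, without overlap. The ratio of those means was 0.657. Together the tested chains ranged from -0.71 to 0.47.

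The processing genes lay on both sides of zero. Serpinh1, the collagen chaperone, was at 37.4, 41.0, 30.7 and 40.1 CPM in the CTR mice and 27.0, 35.6, 30.8 and 26.2 CPM in the CAC mice. CAC replicates 1 and 4 lay below every CTR mouse and the groups overlapped (log2 fold change -0.34, SE 0.14, adjusted p by edgeR = 0.305). Pcolce, the enhancer of C-propeptide removal, was at 31.0, 29.8, 37.3 and 37.0 CPM in the CTR mice and 39.5, 47.9, 48.6 and 43.2 CPM in the CAC mice. All CAC mice were above all CTR mice (log2 fold change 0.41, SE 0.13, adjusted p by edgeR = 0.147), where 3.64% of all genes tested showed this order. Pcolce holds fractions of reads in 3 libraries and shares exon bases with Fbxo24 on the same strand. The protease Bmp1 was at 3.24, 5.06, 6.23 and 5.73 CPM in the CTR mice and 3.78, 4.79, 9.08 and 4.53 CPM in the CAC mice, with overlap (log2 fold change 0.20, and -0.21 without CAC replicate 3).

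P4ha1, the catalytic subunit of prolyl 4-hydroxylase, was at 6.48, 6.13, 6.23 and 5.73 CPM in the CTR mice and 13.5, 6.91, 11.1 and 6.97 CPM in the CAC mice. CAC replicates 1 and 3 stood well above CTR and CAC replicates 2 and 4 just above it (log2 fold change 0.65, SE 0.25, adjusted p by edgeR = 0.265). Its partner subunit P4hb, also a general disulfide isomerase, was at 29.5, 29.8, 29.9 and 27.6 CPM in the CTR mice and 23.2, 25.5, 31.6 and 26.8 CPM in the CAC mice (log2 fold change -0.10, adjusted p by edgeR = 0.824, and -0.20 to -0.04 with single libraries left out). P4ha2 was below the filter, at 1.34 ± 0.52 and 1.59 ± 0.74 CPM (SD, n = 4, exact two-sided permutation p = 0.629). The groups overlapped for P4hb and P4ha2.

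The lysyl hydroxylases and lysyl oxidases overlapped between the groups. Plod1 was at 53.6, 53.3, 69.3 and 67.5 CPM in the CTR mice and 60.5, 59.0, 63.3 and 77.0 CPM in the CAC mice, and the log2 fold change was 0.10 (0.01 to 0.17 with single libraries left out). Plod3 was at 14.4, 19.4, 23.7 and 15.9 CPM in the CTR mice and 22.7, 19.7, 20.2 and 18.1 CPM in the CAC mice, and the log2 fold change was 0.14 (0.05 to 0.27 with single libraries left out). Loxl1, which cross-links elastin and collagen, was at 23.0, 24.2, 15.4 and 19.4 CPM in the CTR mice and 17.3, 19.7, 17.0 and 12.2 CPM in the CAC mice (log2 fold change -0.34, SE 0.19, adjusted p by edgeR = 0.47, and -0.20 without CAC replicate 4). Lox was at 10.4, 7.99, 9.13 and 8.60 CPM in the CTR mice and 11.3, 14.9, 7.62 and 6.27 CPM in the CAC mice (log2 fold change 0.09, and -0.14 without CAC replicate 2). Loxl2 and Plod2 were below the filter. Loxl2 was at 3.18 ± 0.70 CPM in the CTR mice and 1.57 ± 1.2 CPM in the CAC mice (SD, n = 4). It had the smallest exact two-sided permutation p of the untested members (0.0857, where 4 against 4 mice allow 0.0286). Its counts held fractions of reads in 7 libraries and were rounded.

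Of the 31 members below the filter, 28 are chains and 3 are processing genes. No read was counted in any library for Col9a1, Col9a2, Col9a3 and Col22a1, which allows up to 0.62 to 1.65 CPM. Another 13 had fewer than 10 counts over the 8 libraries, among them the cartilage chains Col2a1, Col11a1 and Col10a1. The other 14 had 10 counts or more, with exact two-sided permutation p from 0.0857 to 0.886. Fitted without the filter, where 26 of the 31 had a row, Col7a1 was lower (log2 fold change -1.29, unadjusted p = 0.0402) and Col11a2 higher (1.67, unadjusted p = 0.03) in the edgeR test, and 0 of the 26 passed the adjusted threshold. These fits rest on 35 and 21 counts over all libraries. With 1 library left out, the exact two-sided permutation p of Col7a1 (without CTR replicate 1), Col4a3 (without CAC replicate 1) and Loxl2 (without CAC replicate 3) was 0.0286, the smallest that 3 against 4 allow.

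Genes that act on collagen with the members were examined in 6 further lists. Of 11 tested genes of other modification and folding factors, 2 were lower and 0 higher with an unadjusted p below 0.05, with Crtap, a partner of prolyl 3-hydroxylase, first (log2 fold change -0.50, adjusted p by edgeR = 0.341). None of the 10 tested export genes passed that level, and Sec23b was first (log2 fold change -0.59, adjusted p by edgeR = 0.472). Of the 9 other maturation genes, the cross-linking enzyme Tgm2 was the only one below an unadjusted p of 0.05, at 161 ± 12.7 CPM in the CTR mice and 210 ± 16.4 CPM in the CAC mice (SD, n = 4, adjusted p by edgeR = 0.0763).

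The 2 discoidin domain receptors, which sense fibrillar collagen, lay on opposite sides. Ddr1 was at 8.55 ± 1.68 CPM in the CTR mice and 4.77 ± 1.06 CPM in the CAC mice (log2 fold change -0.84, adjusted p by edgeR = 0.128), and Ddr2 at 25.9 ± 3.99 and 32.9 ± 3.46 CPM (log2 fold change 0.36, adjusted p by edgeR = 0.286; SD, n = 4). All 4 CAC libraries were below all CTR libraries for Ddr1, while those of Ddr2 overlapped. Ddr2 was named after its value was seen. In the breakdown list, 1 of 7 tested genes passed the adjusted threshold, the metalloprotease inhibitor Timp2, which rose by 0.51 on the log2 scale (adjusted p by edgeR = 0.00579). With an unadjusted p below 0.05, 3 of the 7 were higher and 0 lower, Timp3 (log2 fold change 0.27) and Mmp9 (0.66) beside Timp2, and Timp3 and Mmp9 were named after their values were seen. The list, most of whose sum is Timp2, came to 339.9 to 396.7 CPM in the CTR libraries and 479.5 to 536.5 CPM in the CAC libraries, without overlap, whereas the sums of the other 5 lists overlapped. In the TGF-beta list, 0 of 9 passed the adjusted threshold and 1 was lower and 0 higher with an unadjusted p below 0.05, namely Ltbp4, which stores latent TGF-beta in the matrix (log2 fold change -0.55, adjusted p by edgeR = 0.171).

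In whole tissue, fewer cells that make collagen and less collagen RNA per cell cannot be told apart. The list of fibroblast and adipocyte progenitor markers holds no collagen. It summed to 634 to 806 CPM in the CTR mice and 597 to 837 CPM in the CAC mice. Most of that sum is Gsn, at 487 ± 60.1 CPM in the CTR mice and 411 ± 72.7 CPM in the CAC mice (SD, n = 4). In CAC, 7 of the 11 tested genes of the list were higher and 4 lower. Of these, Ly6a and Ly6c1 rose (adjusted p by edgeR = 0.000238 and 0.00998), and Cd34 and Fbln1 were higher with an unadjusted p below 0.05 (log2 fold changes 0.69 and 0.89, adjusted p by edgeR = 0.0623 and 0.275). No gene of the list was lower at that level. Dpt was at 35.2 ± 1.25 CPM in the CTR mice and 28.4 ± 4.70 CPM in the CAC mice and Pdgfra at 3.64 ± 0.57 and 3.88 ± 2.06 CPM (SD, n = 4). The pericyte marker Pdgfrb was at 8.13 ± 1.10 CPM in the CTR mice and 5.02 ± 1.93 CPM in the CAC mice (adjusted p by edgeR = 0.286), and Kcnj8 was also lower with an unadjusted p below 0.05 (log2 fold change -0.47). The smooth muscle markers Cnn1 and Myh11 were higher at that level (log2 fold changes 0.67 and 0.66). The 10 genes of this list split into 5 higher and 5 lower, 0 passed the adjusted threshold, and the sums overlapped, at 265 to 301 and 237 to 317 CPM. Single markers of cell types were named after their values were seen.

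The lists of markers of other cells were summed in the same way. All 10 tested skeletal muscle genes were higher in CAC, with sums of 1206 to 2953 CPM in the CTR mice and 2629.9 to 4873 CPM in the CAC mice, and Actn3 rose (log2 fold change 1.63, adjusted p by edgeR = 0.0148). The macrophage list summed to 134 to 173 and 211 to 283 CPM, and C1qa and C1qb rose (log2 fold changes 0.83 and 0.98, adjusted p by edgeR = 0.00103 and 0.00137). The neutrophil list summed to 6.12 to 6.92 CPM in the CTR mice and 165 to 432 CPM in the CAC mice, most of which is S100a8 (175 ± 85.7 CPM in CAC) and S100a9 (73.5 ± 28.1 CPM in CAC), with Retnlg at 10.7 ± 7.06 CPM (SD, n = 4). These 3 genes rose (adjusted p by edgeR from 0.000182 to 0.0155). The endothelial sums, most of which is Egfl7, overlapped, at 1319 to 1349.8 and 1119.7 to 1588 CPM. Within that list Flt1 and Esam rose (log2 fold changes 0.53 and 0.62, adjusted p by edgeR = 0.0166 and 0.0201), with all CAC libraries above all CTR libraries, and Kdr was lower (-0.32, adjusted p by edgeR = 0.259). Schwann cell marker sums overlapped, at 235 to 345 and 235 to 394 CPM. Of the 8 cartilage and bone markers, 6 were at 0 in every library and 0 were tested. The part of these cells in the collagen values was not tested.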

How the data were processed

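RNA-seq of BAT from 4 CTR and 4 CAC mice was analysed from 2 tables. Per the labels and the methods, the authors checked reads with FastQC 0.11.9, aligned them to mm10 with HISAT2 2.2.1 and counted reads per gene by featureCounts, multi-mapped reads included. The deposited expected counts hold fractions of reads (25.1% to 28.4% of the values above 0) and were rounded. The deposited normalized signal equals the count without decimals divided by 1 size factor per library. The strand setting is not given in the sources used here. Of the gene IDs, 91.4% match GENCODE M21 (GRCm38) without version, which gave coordinates.

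Counts were filtered with filterByExpr, scaled by TMM and tested with edgeR 4.0.16 in R 4.3.3 (robust quasi-likelihood test, no covariate, Benjamini-Hochberg over 9876 genes, threshold 0.05). CPM use the TMM-scaled library size. Standard errors were derived from the F statistic. Untested members with at least 10 counts got exact permutation tests over 70 assignments. Ratios had 0.5 added to counts. The script was tested on simulated data. Alternatives were DESeq2 1.42.0, limma-trend (limma 3.58.1) on the signal plus 1, other scalings and filters, fractions cut off, a replicate block and each library left out. Replicates differed by more than sampling noise (chi-square per degree of freedom of 3.73 to 8.35 between pairs). The floors given for a count of 0 cover counting error only. Named genes are the tested chains of types I, III, IV, V and VI, the tested processing genes, other members with an unadjusted p under 0.05, and, of the further pathway lists, the gene with the smallest p and any with an adjusted p under 0.05. Other members, such as Col27a1, Col18a1, Col8a1, Col14a1 and the untested ones, and single markers of cell types were named beyond this rule with their values known. All markers with an adjusted p under 0.05 are named. The members and lists were chosen with earlier results of these data known. Plots were made with Python 3.11.15 and matplotlib 3.10.9. Proteomics was not analysed here.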

Additional observations from a re-analysis of the deposited data

Results flagged for a closer look

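Of 68 groups of 4 libraries checked among the members, their class sums and ratios, 2 held 1 library far from the other 3, and chance gives about 3.4, or 1 in 20. CTR replicate 3 held 3.73 CPM of Col5a2, beside 7.92 to 8.26 CPM in the other CTR libraries. CTR replicate 4 held 27.6 CPM of P4hb, beside 29.5 to 29.9 CPM in the other CTR libraries.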

How the results depend on the processing

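Across 18 alternatives, the median log2 fold change kept its sign for the chains (-0.52 to -0.35), the fibrillar chains (-0.61 to -0.43) and the type VI chains (-0.77 to -0.37). That of the basement membrane chains lay between -0.05 and 0.09, and that of the processing genes between 0.04 and 0.20, the latter without CAC replicate 4. Without the low-count filter, 351 of 23730 genes were called, 219 of them higher in CAC. Of 51 members, 4 were called, all lower in CAC (Col15a1, Col1a2, Col5a1 and Col6a2). At an unadjusted p below 0.05, 11 members were lower. With each library left out, the called genes ranged from 42 (38 higher), without CTR replicate 1, to 135 (104 higher), with 60 (43 higher) without CAC replicate 3. The called members ranged from 0 to 2 (Col6a2 and Col3a1 without CAC replicate 3), the members lower with an unadjusted p below 0.05 from 4 to 8 and those higher from 1 to 3. DESeq2 gave 1 higher member. With the replicate block, 140 genes were called, 112 of them higher, and 1 member, Col6a2 (adjusted p = 0.0333). The labels name no pairing by replicate number. Deviations from the group mean correlated at -0.001 to 0.056 between libraries with the same number and at -0.059 to 0.06 between the others. So few values cannot exclude a pairing. Of 444 fits of single members, 428 kept direction and side of the threshold, 8 passed the threshold newly and 8 changed sign. The sign changes were Col4a2 (-0.11 to 0.02 over libraries left out), Col27a1 (-0.34 to 0.11), Col6a1 (-0.23 to 0.21), Lox (-0.14 to 0.28) and Bmp1 (-0.21 to 0.33). The causes were not tested. Leaving out 1 library moved the log2 fold change by over 1.5 times for 16 of the 25 members tested, and for Col1a1 it was -0.45 without CAC replicate 2. It did not for Col1a2, Col5a1, Col5a3, Col6a2, Col6a3, Col15a1, Serpinh1, Pcolce and P4ha1. Of the members below the filter, 0 had an exact permutation p below 0.05, and 0 to 1 with a library left out, an alternative chosen after seeing the data. Members under about 5 CPM rest on few counts.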
